A study of Mus musculus and blank sample with 191 samples.

Results

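The insulin-like growth factor (IGF) axis was followed across the epithelium and stroma of the mouse uterus through 10 genes, taken by symbol from the table of raw counts. The genes were the ligands Igf1 and Igf2, the receptors Igf1r and Igf2r, the binding proteins Igfbp2, Igfbp3, Igfbp4, Igfbp5 and Igfbp6, and the receptor adaptor Grb10. All 10 were among the 19962 targets of that table, and 9 of them were among the 14881 targets that passed the filter of the study, Igf2 being the exception. The uterine sections came from mice heterozygous for Thra1PV, which encodes a dominant negative form of the thyroid hormone receptor alpha 1 protein (genotype Thra1PV/+, called PV), and from wild-type mice (genotype Thra1+/+, called WT), all at metestrus. The mutation is carried in the whole body, so epithelium and stroma of a PV mouse both hold it. Fixed tissue was profiled with the GeoMx whole-transcriptome probe set, in which a pathologist outlined regions by morphology and by staining for pan-cytokeratin (epithelium) or smooth muscle actin (stroma), and the probes released from a region were sequenced. Each gene was read by 1 probe, so levels are compared within a gene and not between genes. The first collection plate held 95 regions from 14 mice, and the counts of a mouse were summed within a compartment, which made the mouse the replicate. Epithelium had 60 regions from 6 PV and 8 WT mice, and stroma had 35 regions from 6 PV and 7 WT mice. The PV mice were 2.4 to 6.3 months old with a median of 4.1 months, and the WT mice 4.0 to 9.0 months with a median of 5.85 months. The sums held 61691 to 13492532 counts in epithelium and 85336 to 5195249 in stroma. The smallest pair belonged to PV5, a mouse with 1 region per compartment, in which several of these genes rested on 1 to 5 counts. The lowest value in the table is 1, so a CPM resting on such counts in a small sum lies at or near the floor of the table. Levels are given as CPM (counts scaled to a fixed library total) after trimmed-mean (TMM) scaling.

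IGF1 and IGF2 are secreted peptides that signal through the tyrosine kinase receptor IGF1R, whereas IGF2R, the cation-independent mannose 6-phosphate receptor, binds IGF2 and carries it to lysosomes. Binding proteins hold most of the ligand outside cells and either prolong or limit its action, and proteases that cut them release it. In the rodent uterus, stromal IGF1 is a known mediator of estrogen-driven growth of the neighbouring epithelium. Grb10 binds the activated IGF1 and insulin receptors and restrains their signalling, and it is an imprinted gene, as are Igf2 and Igf2r in the mouse.

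The genes lie on 6 chromosomes of GRCm38, by the GENCODE vM21 annotation. Igfbp2 on the plus strand (chromosome 1, 72824503 to 72852474) and Igfbp5 on the minus strand (72857932 to 72874884) are neighbours that point towards each other. Grb10 (11930508 to 12038683), Igfbp3 (7206086 to 7213923) and Igfbp4 (99041244 to 99054392) are on chromosome 11, Igf1r (67952827 to 68233668) and Igf2 (142650766 to 142666816) on chromosome 7. Igf1 is on chromosome 10 (87858265 to 87937042), Igfbp6 on chromosome 15 (102144362 to 102149511) and Igf2r on chromosome 17 (12682406 to 12769664). The upstream sequences of Igfbp5, Igfbp6 and Grb10 are shown because these 3 members had an unadjusted p under 0.05 between PV and WT in both compartments. They are the part of the 250 bases before a RefSeq start (GRCm38.p6) that holds no annotated exon, written 5′ to 3′ on the strand of the gene, and for Grb10, which has 2 starts in the table, the window with the motif matches is shown.
Igfbp5 (chr1:72874885-72875115, minus strand): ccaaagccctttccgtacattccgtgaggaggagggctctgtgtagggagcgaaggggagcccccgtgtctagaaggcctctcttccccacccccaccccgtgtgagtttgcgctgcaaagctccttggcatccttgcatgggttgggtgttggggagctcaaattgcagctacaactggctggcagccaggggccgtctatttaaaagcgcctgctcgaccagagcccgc
Igfbp6 (chr15:102143936-102144185, plus strand): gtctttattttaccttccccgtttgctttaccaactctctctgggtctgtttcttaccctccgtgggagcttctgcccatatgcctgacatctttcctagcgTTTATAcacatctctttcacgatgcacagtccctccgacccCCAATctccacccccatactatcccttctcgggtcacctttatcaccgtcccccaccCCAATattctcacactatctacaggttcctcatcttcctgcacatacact
Grb10 (chr11:12037429-12037670, minus strand): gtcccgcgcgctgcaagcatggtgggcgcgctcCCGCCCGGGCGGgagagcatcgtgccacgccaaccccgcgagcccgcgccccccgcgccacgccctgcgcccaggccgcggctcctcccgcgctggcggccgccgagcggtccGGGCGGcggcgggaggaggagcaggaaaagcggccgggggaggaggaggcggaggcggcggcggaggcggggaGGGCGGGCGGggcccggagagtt
Capitals mark matches, on either strand, to AGGTCA (the core element bound by thyroid hormone and other nuclear receptors), GGGCGG (the GC box), CCAAT and TATAAA. The Igfbp5 window held none of these letters, the Igfbp6 window held 2 matches to CCAAT and 1 to TATAAA, and the Grb10 window held 5 to GGGCGG, of which 1 neighbouring pair overlapped. AGGTCA was present in 14.0% of the 32851 windows of 250 bases in the RefSeq table, GGGCGG in 32.7%, CCAAT in 33.8% and TATAAA in 12.4%. Over the full 250 bases, the windows held 81.2% G and C before Grb10, 58.8% before Igfbp5 and 49.6% before Igfbp6, against a median of 52.4% over the table. These matches describe the letters only.

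The compartment labels held on the first plate. All 95 regions matched their label in the difference between epithelial and fibroblast markers, whereas 37 of the 94 regions of the second plate did not, so the second plate enters only as an alternative. In the sums, Krt8 was higher in epithelium by 4.22 ± 0.17 and Epcam by 3.90 ± 0.18 (log2 fold change ± SE, 13 mice), while the fibroblast genes Dcn and Col1a1 changed by -3.34 ± 0.19 and -2.94 ± 0.17. No 2 regions were copies of each other. Compartments were compared within the 13 mice that had both, with the quasi-likelihood test of edgeR, the mouse as a block and Benjamini-Hochberg adjustment over all 14881 genes, and a gene was called at an adjusted p under 0.05.

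Igf1 was the ligand with a clear signal, and it was a stromal transcript. Its CPM in WT stroma ran from 70.7 to 754 with a median of 377.5, and in WT epithelium from 16.2 to 209 with a median of 64.9. In PV stroma the lowest, median and highest CPM were 20.3, 124 and 548, and in PV epithelium 11.8, 26.3 and 44.0. The order of the medians was thus WT stroma, PV stroma, WT epithelium and PV epithelium, with overlap between each pair of neighbours. Within mice, Igf1 was lower in epithelium, at a log2 fold change of -2.39 ± 0.23 (adjusted p = 3.24e-08), in 12 of 13 mice. The exception was PV5, whose Igf1 level rested on 2 counts in each compartment. In a region, Igf1 exceeded 2 times the negative-probe level in 54 of 60 epithelial and 34 of 35 stromal regions.

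Igf2, the growth factor of fetal tissues, stayed close to background. Its median level per mouse was 1.54 times the negative probe in epithelium and 1.82 times in stroma, and it exceeded 2 times that level in 11 of 60 epithelial and 15 of 35 stromal regions. The group medians lay between 8.18 CPM in PV epithelium and 15.1 CPM in PV stroma, with 9.13 CPM in WT epithelium and 10.7 CPM in WT stroma. All 4 groups overlapped, and Igf2 was lower in epithelium in 11 of 13 mice. The highest value, 45.1 CPM in the epithelium of PV5, was 3 counts. Igf2 was not among the genes tested, and at this depth its differences cannot be read as differences of expression.

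The 2 receptors were present in all 95 regions above 2 times the negative probe, and neither was called between compartments. Igf1r ranged from 39.4 to 126 CPM in WT epithelium (median 68.4), from 38.2 to 109 in WT stroma (median 63.1), from 63.6 to 177 in PV epithelium (median 90.7) and from 65.4 to 176 in PV stroma (median 124.5). Its epithelium to stroma difference was -0.07 ± 0.10 (log2, adjusted p = 0.570), and it was lower in epithelium in 8 of 13 mice. Every group of Igf1r overlapped every other one. Igf2r varied little, with medians of 70.0 CPM in WT epithelium, 78.6 in PV epithelium, 78.6 in WT stroma and 84.6 in PV stroma. Its extremes were 55.0 CPM in PV epithelium and 162.5 CPM in the stroma of PV5, and its compartment difference was -0.22 ± 0.10 (adjusted p = 0.0561). The median coefficient of variation between regions of 1 mouse was 13.2% for Igf2r in epithelium, against 32.8% for Igf1.

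Of the binding proteins, all 5 were lower in epithelium. Igfbp6, which prefers IGF2, had a median of 280 CPM in WT stroma (152 to 440), 162 in PV stroma (49.7 to 255), 38.6 in WT epithelium (23.0 to 84.5) and 20.6 in PV epithelium (17.7 to 45.1). Its compartment difference was -2.73 ± 0.18 (adjusted p = 1.83e-10), with 13 of 13 mice lower in epithelium. Only the PV stroma of 1 mouse, PV6 at 49.7 CPM, reached into the range of epithelium. Igfbp5, a matrix-bound binding protein of mesenchymal cells, had a median of 493.2 CPM in WT stroma (251 to 1245), 191 in PV stroma (20.3 to 438), 70.5 in WT epithelium (32.8 to 118) and 41.2 in PV epithelium (15.0 to 62.2). The compartments differed by -2.86 ± 0.22 (adjusted p = 2.05e-09), in the same direction in 13 of 13 mice, and the PV stroma range alone overlapped with epithelium. Igfbp4, an inhibitory binding protein that the protease PAPP-A cleaves, had a median of 935 CPM in WT stroma (485 to 2896), 1006 in PV stroma (274 to 1535), 218 in WT epithelium (59.9 to 420) and 152 in PV epithelium (90.1 to 338). It differed by -2.48 ± 0.20 (adjusted p = 4.26e-09), and here too 13 of 13 mice were lower in epithelium.

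Igfbp3, the main carrier of IGF1 in serum, was the 1 member whose 14 epithelium and 13 stroma sums did not overlap at all. Among all genes, 2.83% separated the compartments in that way with epithelium lower. Its highest epithelial level was 55.8 CPM and its lowest stromal level 56.5 CPM. The medians were 31.7 CPM in WT epithelium, 28.0 in PV epithelium, 85.9 in WT stroma and 159 in PV stroma, and the compartment difference was -1.96 ± 0.25 (adjusted p = 1.48e-06). PV stroma was also the group with the widest spread, from 63.9 to 721 CPM. Igfbp2 was low throughout, with medians of 14.2 CPM in WT epithelium, 10.9 in PV epithelium, 14.7 in WT stroma and 19.8 in PV stroma, about 2.13 times the negative probe in epithelium and 2.18 times in stroma. Its difference of -0.37 ± 0.14 was called (adjusted p = 0.0306) but lost when any of 4 mice was left out: PV2 (0.0565), PV4 (0.0947), WT5 (0.0572) or WT6 (0.0587).

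Grb10 was lower in epithelium as well, by -1.06 ± 0.17 (adjusted p = 2.62e-05), in 11 of 13 mice. Its CPM ran from 93.5 to 142 in WT stroma (median 100.3), from 45.5 to 115.5 in PV stroma (median 72.8), from 35.4 to 98.8 in PV epithelium (median 50.0) and from 23.7 to 64.2 in WT epithelium (median 36.9). The WT compartments of Grb10 did not overlap, as those of Igfbp3, Igfbp4, Igfbp5 and Igfbp6 did not, while its PV compartments did. The share of all genes with such a gap within WT was not counted.

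**Figure D1:**
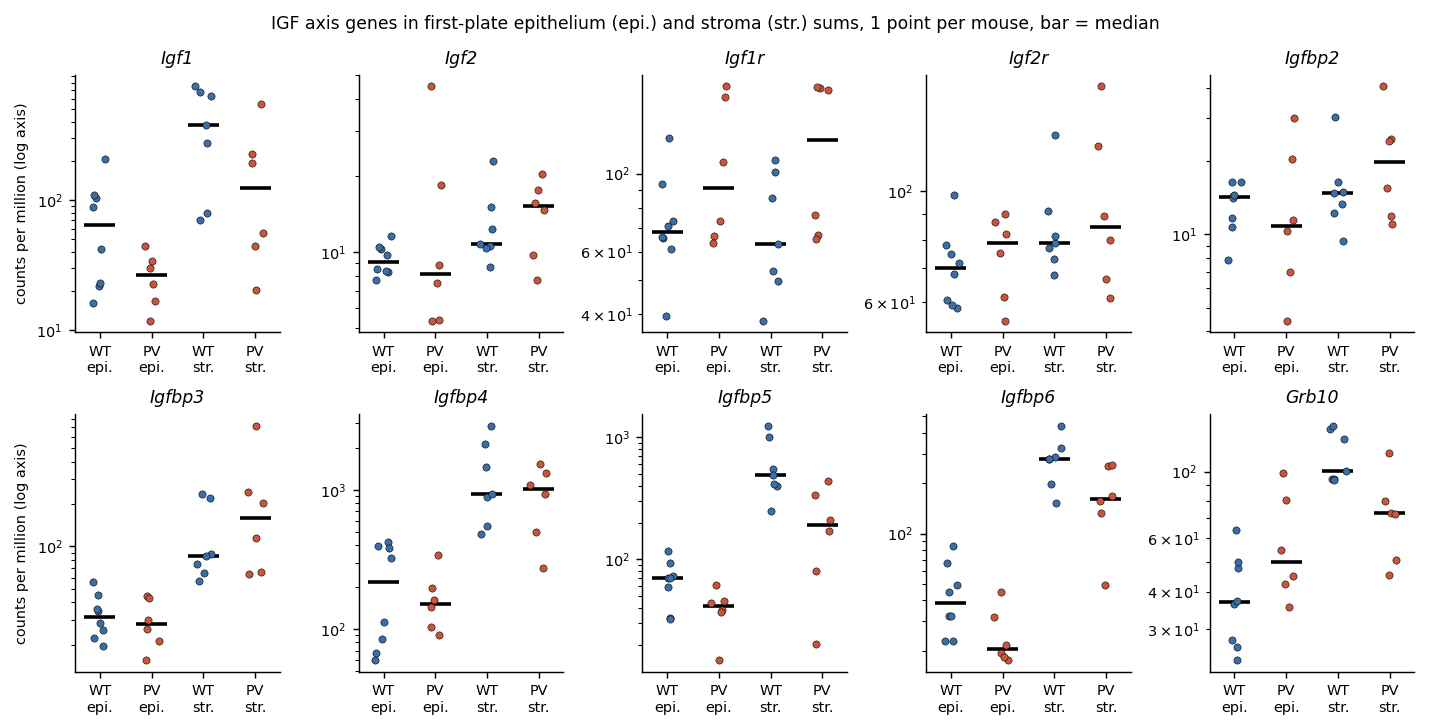
CPM of the 10 genes (log axis) in the first-plate sums, 1 point per mouse, for WT and PV epithelium (8 and 6 mice) and WT and PV stroma (7 and 6 mice), with the group median as a bar. Each gene has its own axis. Igf1 and Igfbp3 to Igfbp6 sit higher in stroma, Igf1r and Igf2r do not, and in Igf2 and Igfbp2 every group overlaps every other one.

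In all, 7 of the 9 members tested were called lower in epithelium and none higher, where the background was 34.6% of all genes lower and 28.4% higher. The median difference of the 9 was -1.96, against -0.05 over all genes. Within the 7 WT mice 6 of the 9 were called lower (background 26.8%), and within the 6 PV mice 6 of the 9 (background 26.7%). The 2 sets differed by 2 genes. Grb10 was called in WT (-1.49 ± 0.16, adjusted p = 5.75e-07) and not in PV (-0.45 ± 0.19, adjusted p = 0.0606), and Igfbp2 was called in PV (-0.60 ± 0.21, adjusted p = 0.0262) and not in WT (-0.20 ± 0.18, adjusted p = 0.391). Whether these differences between genotypes hold was tested directly below. In a region of tissue, fewer cells of a type and less RNA per cell cannot be told apart. With the labels of the second plate as they stand, 0 of 9 members were called (edgeR, lowest adjusted p = 1.00), and 0 of 14881 genes.

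**Figure D2:**
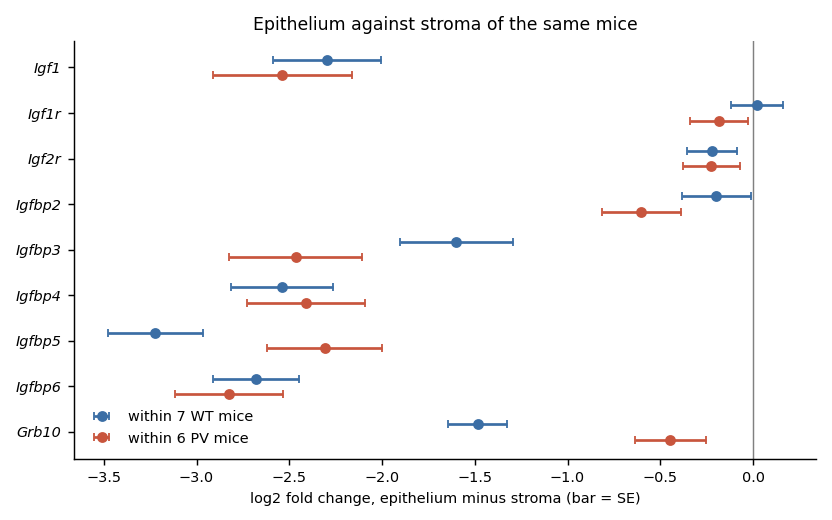
Epithelium minus stroma difference (log2 fold change, bar = SE) of the 9 tested members within 7 WT and within 6 PV mice. Igf1, Igfbp3, Igfbp4, Igfbp5 and Igfbp6 lie between -1.60 and -3.22 in both genotypes, and Grb10 and Igfbp5 are the 2 members whose WT points lie farther below 0 than their PV points by about 1.

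Of 43 other genes of the insulin and IGF pathway, 37 were tested, and 14 were called lower and 8 higher in epithelium, shares near the 34.6% and 28.4% of all genes. Their median difference was -0.07. Those lower in epithelium by the most included 3 extracellular proteases that cut binding proteins, Adam12 (-2.82 ± 0.14), Htra1 (-2.43 ± 0.19) and Pappa (-1.29 ± 0.18). Igfbp7 (-2.30 ± 0.18), a low-affinity relative of the binding proteins, and the receptor substrate Irs2 (-1.24 ± 0.21) were also at this end. Adjusted p was at most 4.35e-05 in these 5. The genes higher in epithelium by the most were Stc2 (2.35 ± 0.22), a stanniocalcin that inhibits PAPP-A, the adaptor Grb7 (2.27 ± 0.15) and Igf2bp2 (1.96 ± 0.16), which binds Igf2 and other messenger RNAs. They were followed by the PI3-kinase subunits Pik3r3 (1.52 ± 0.11) and Pik3cb (0.78 ± 0.12) and by Stc1 (0.64 ± 0.23), the second stanniocalcin. The insulin receptor Insr, a relative of Igf1r, was lower in epithelium by a small margin (-0.51 ± 0.10, adjusted p = 2.90e-04). Insrr, another relative of Igf1r, was not called (-0.36 ± 0.16, adjusted p = 0.0608).

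**Figure D3:**
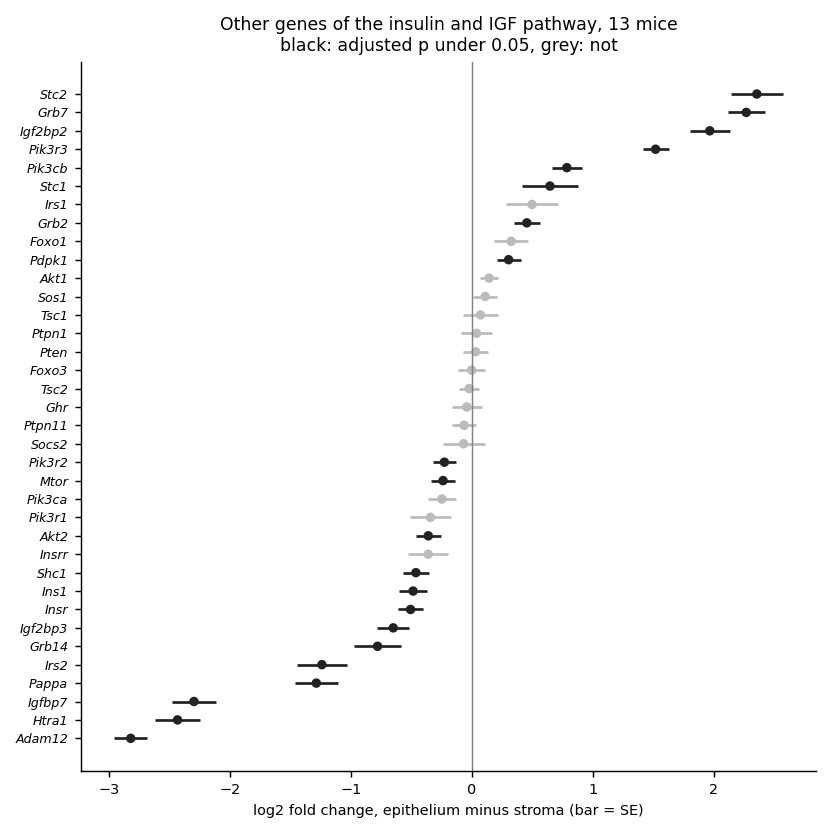
Epithelium minus stroma difference (log2 fold change, bar = SE, 13 mice) of 36 of the 37 tested pathway genes, in order of size. Black marks 13 of the 14 genes called lower and the 8 called higher, and the ends of the scale are Adam12 at -2.82 and Stc2 at 2.35.

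The question the study asked of these sections was how the mutant receptor alters expression in each compartment. Between PV and WT no member passed the test in either compartment, and no gene did: 0 of 14881 (0.00%) were called by edgeR in epithelium and 0 in stroma, with 1223 and 524 at an unadjusted p under 0.05. DESeq2 called 28 and 2 genes, limma on the normalised values per mouse 0 and 0, limma on single regions, blocked by mouse, 1 and 2, and edgeR with age as a covariate 10 and 0, none of them a member. The members are therefore described by their values, and p-values below are unadjusted unless stated. In epithelium 1 of 9 members had a p under 0.05 with PV higher (background 4.42%) and 3 with PV lower (3.80%). In stroma the same counts were 1 (2.12%) and 3 (1.40%). No member separated the 2 genotypes without overlap, as 0.0672% of genes did in each direction in epithelium and 0.0269% in stroma.

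Igf1 had a PV to WT difference of -1.48 ± 0.54 in epithelium (p = 0.0145, adjusted p = 0.537) and -1.12 ± 0.62 in stroma (p = 0.0882). All 6 PV mice lay below the WT median in epithelium and 5 of 6 did in stroma. The exact permutation test of mean log2 CPM gave p = 0.0833 and 0.120 (two-sided, 10 members tested in each compartment). Fibroblast marker values lay lower as well, with overlap and with none called. All 10 fibroblast markers had lower values in PV epithelium, by a median of -0.27, with no marker at 0. Their mean log2 signal per mouse ran from 4.99 to 5.77 in PV and from 5.20 to 6.67 in WT. This signal is log2 of the deposited normalised value plus 1, averaged over regions, and is not on the scale of CPM. With the marker score (fibroblast minus epithelial markers) as a covariate the Igf1 difference in epithelium was 0.03 in place of -1.48, and in stroma -1.47 in place of -1.12. With 1 mouse left out the stromal difference ran from -1.84, without PV4, to -0.91.

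Igfbp5 had lower values in PV in both compartments. In stroma the difference was -1.50 ± 0.47 (p = 0.00519, adjusted p = 1.00), in epithelium -0.62 ± 0.28 (p = 0.0394, adjusted p = 0.592), and all 6 PV mice lay below the WT median in both. The exact permutation test gave p = 0.00816 in stroma and 0.0513 in epithelium. The lowest PV values belonged to PV5, with 2 counts in stroma and 1 in epithelium, and without that mouse the differences were -1.31 and -0.58. WT stroma was itself spread, since the oldest WT mice, WT5 (9.0 months) and WT6 (7.4 months), had 1008 and 1245 CPM and the other 5 had 251 to 550 CPM. With age as a covariate the stromal difference was -0.80.

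Igfbp6 had PV to WT differences of -0.92 ± 0.31 in epithelium (p = 0.00792, adjusted p = 0.507) and -0.71 ± 0.32 in stroma (p = 0.0396). In epithelium 5 of 6 PV mice lay below the WT median, and in stroma 6 of 6. With the marker score as a covariate the epithelial difference was -0.23 and the stromal one -0.76. The exact permutation test gave p = 0.0520 in epithelium and 0.0361 in stroma.

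Grb10 had PV to WT differences of opposite sign in the 2 compartments, as had Igfbp2 and Igfbp3. In epithelium its PV to WT difference was 0.63 ± 0.26 (p = 0.0258, adjusted p = 0.564), and 5 of 6 PV values exceeded the median of WT. In stroma it was -0.56 ± 0.22 (p = 0.0170, adjusted p = 1.00), and 5 of 6 PV values were under the median of WT. The epithelial value was 0.30 with age as a covariate and 1.06 with the marker score, and on the second plate alone it was -0.16.

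The receptors and the remaining binding proteins had a p under 0.05 in 1 case. Igf1r differed by 0.73 ± 0.31 in stroma (p = 0.0271, 6 of 6 PV values over the median of WT) and by 0.45 ± 0.28 in epithelium (p = 0.124). Igfbp3 differed by 0.98 ± 0.51 in stroma (p = 0.0701; 0.15 without PV3, the mouse at 721 CPM) and by -0.22 ± 0.28 in epithelium (p = 0.439), and Igfbp4 by -0.49 ± 0.44 and -0.35 ± 0.47 (p = 0.286 and 0.461). With the marker score as a covariate the epithelial value of Igfbp4 was 0.96. Igf2r (0.09 ± 0.22 in stroma, 0.05 ± 0.16 in epithelium) and Igfbp2 (0.25 ± 0.28 and -0.27 ± 0.26) had differences of about the size of their errors. For Igf2 the difference of mean log2 CPM was 0.22 in epithelium and 0.13 in stroma (exact permutation p = 0.653 and 0.618).

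**Figure D4:**
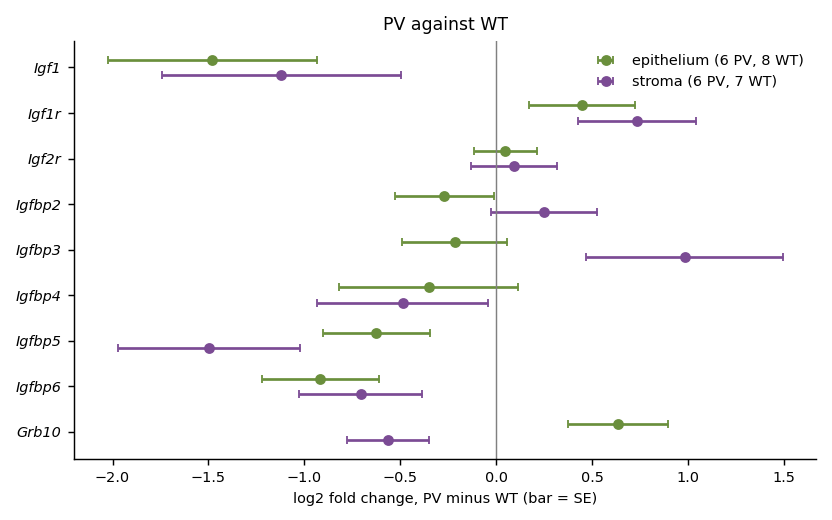
PV minus WT difference (log2 fold change, bar = SE) of the 9 tested members in epithelium (6 PV and 8 WT mice) and stroma (6 PV and 7 WT mice). Igf1, Igfbp5 and Igfbp6 lie below 0 in both compartments, Igf1r above 0 in both, and Grb10 on opposite sides at 0.63 and -0.56, while no adjusted p is under 0.05.

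Markers of other cell types are given beside these values, none of which was called, and their mean levels overlapped between genotypes. Of 7 smooth muscle markers 6 had higher values in PV stroma (median 0.76, mean log2 signal 5.26 to 6.83 in PV and 4.85 to 6.37 in WT), as had 6 of 7 endothelial markers (median 0.32, 4.96 to 5.49 and 4.60 to 5.17). Fibroblast markers were split, with 7 of 10 higher and a median of 0.05, though their mean in PV reached down to 7.51 and in WT to 8.27. In epithelium all 4 gland markers tested had lower values in PV, by a median of -1.19 (mean log2 signal 3.16 to 3.94 in PV and 3.31 to 5.77 in WT). Of 7 macrophage markers 5 had lower values in PV stroma (median -0.35) and 3 in PV epithelium (median 0.01). Only 2 of 8 squamous markers passed the filter of the study. Both had higher values in PV stroma (median 0.11), and 1 of them in PV epithelium (median 0.23). The part of these cells in the member values was not tested. The marker score given above holds only fibroblast and epithelial markers, and it cannot tell cell content from expression per cell. Of the 37 pathway genes, 2 had an unadjusted p under 0.05 with PV higher and 3 with PV lower in epithelium, and 4 and 0 in stroma, none of them called. Over all genes the shares were 4.42% and 3.80% in epithelium and 2.12% and 1.40% in stroma. The lowest p in epithelium belonged to Igfbp7 (-1.23 ± 0.35, p = 0.00254) and Socs2 (0.64 ± 0.18, p = 0.00269), an inhibitor of growth hormone signalling. In stroma they belonged to Grb14 (0.91 ± 0.30, p = 0.00653), a relative of Grb10, and Stc1 (0.62 ± 0.23, p = 0.0155).

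The difference between the 2 genotype effects was tested within mice. Grb10 gave 1.04 ± 0.25 (epithelium minus stroma, p = 5.42e-04, adjusted p = 0.579), the lowest p of the members, and Igfbp5 gave 0.91 ± 0.38 (p = 0.0287, adjusted p = 0.657). These were the 2 members of 9 with p under 0.05 in that direction, where the background was 3.29% of genes, and 0 members had one in the other direction (3.88%). No gene was called by edgeR (0.00%), with 1066 at an unadjusted p under 0.05, and DESeq2 called 1 gene and limma 0, no member among them. Grb10 kept its sign in the alternatives run for this term, from 0.61 with both plates to 1.24 with 1 mouse left out. The second plate alone, age and the marker score were not run for it. For the other 7 members the term ran from -0.86 ± 0.46 in Igfbp3 to 0.13 ± 0.40 in Igfbp4, with -0.24 in Igf1, -0.21 in Igf1r, -0.40 in Igfbp2, -0.15 in Igfbp6 and 0.00 in Igf2r. In the pathway list 0 genes had a p under 0.05 upwards and 6 downwards, led by Pik3r1 (-0.89 ± 0.28, p = 0.00535) and Grb14 (-0.95 ± 0.33, p = 0.0104).

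The study also compared younger with older mice, and the genotype effect was therefore taken in mice under 5 months (4 PV and 2 WT) and from 5 months (2 PV and 6 WT in epithelium, 5 WT in stroma). With so few mice in a class these values are coarse, and 1 WT mouse of 5.0 months lay at the boundary. In stroma Igfbp3 had a genotype difference of 2.35 ± 0.75 in younger and -0.66 ± 0.68 in older mice, which differed by -3.01 ± 1.00 (p = 0.00799, adjusted p = 0.886). Behind this were 204, 63.9, 721 and 244 CPM in the younger PV mice PV1, PV2, PV3 and PV5, and 56.5 and 64.6 in the younger WT mice WT1 and WT2. The older PV mice PV4 and PV6 had 65.7 and 115 CPM, and the older WT mice 75.2 to 234. So the high values lay in 3 of the 4 younger PV mice, and in 2 of the older WT mice.

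Igf1r followed a similar order in stroma. The younger PV mice had 175, 76.5, 176 and 173 CPM and the younger WT mice 63.1 and 53.0, while the older PV mice had 66.8 and 65.4 and the older WT mice 38.2 to 109. The genotype difference was 1.34 ± 0.42 in younger and -0.22 ± 0.40 in older mice, a difference of -1.56 ± 0.58 (p = 0.0145, adjusted p = 0.886). Igfbp5 had a difference of -0.32 ± 0.65 in younger and of -2.35 ± 0.73 in older mice (difference -2.03 ± 0.97, p = 0.0512). Its older PV values were 210 and 79.6 CPM, and the 5 older WT values 411 to 1245 CPM. The share of all genes with such a gap between 2 and 5 mice was not counted. Grb10 in stroma was -0.46 ± 0.32 in younger and -0.83 ± 0.33 in older mice (difference -0.37 ± 0.45).

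Of the 9 members, 2 had a p under 0.05 for the age term in stroma, which is the genotype difference in older mice minus that in younger mice. Both had a negative term (background 3.72%), and 0 had a positive one (1.81%). In epithelium there were 0 in either direction (background 0.961% higher and 2.65% lower), and the terms were -1.10 ± 0.56 in Igf1r, -0.80 ± 0.57 in Igfbp5, -0.66 ± 0.33 in Igf2r, -0.34 in Igfbp6, -0.25 in Igfbp3, -0.06 in Grb10, 0.13 in Igfbp2, 0.57 in Igf1 and 0.84 ± 0.93 in Igfbp4. No gene was called by edgeR for the age term in either compartment, with 537 and 822 at an unadjusted p under 0.05 in epithelium and stroma. DESeq2 called 0 and 1 and limma 0 and 0, without a member. The other stromal terms were 1.35 ± 1.28 for Igf1, 0.85 ± 0.79 for Igfbp4, 0.25 ± 0.50 for Igfbp2, -0.40 ± 0.71 for Igfbp6 and -0.86 ± 0.43 for Igf2r. In the pathway list Insr (-1.42 ± 0.40, p = 0.00221) and Foxo3 (-1.24 ± 0.47, p = 0.0167), a transcription factor restrained by Akt, had the lowest p in stroma, and Pik3r3 (1.23 ± 0.41, p = 0.00933) and Igf2bp2 (-0.89 ± 0.41, p = 0.0445) in epithelium.

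**Figure D5:**
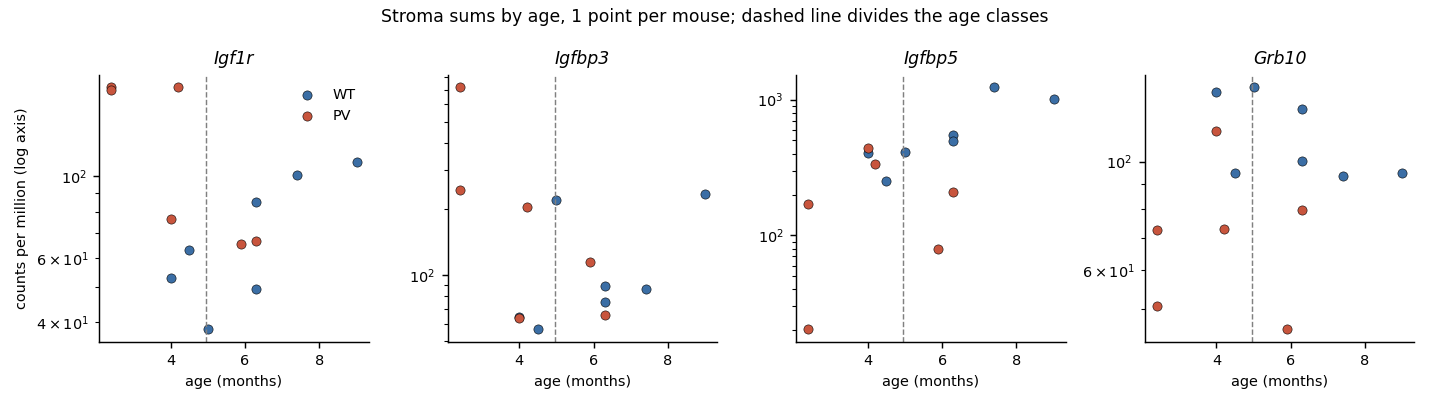
Stromal CPM (log axis) of Igf1r, Igfbp3, Igfbp5 and Grb10 against age in months, 1 point per mouse (6 PV, 7 WT), with the border of the age classes dashed. Igf1r is highest, at 173 to 176 CPM, in 3 PV mice under 5 months, in which Igfbp3 lies at 204 to 721 CPM beside 220 and 234 CPM in 2 older WT mice. Igfbp5 lies at 210 and 79.6 CPM in the 2 PV mice over 5 months.

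Some pairs of members varied together across mice of 1 compartment, which is a description over sums that share library and depth. PV and WT mice were pooled without removing the genotype means, so differences between genotypes enter these correlations. Over all pairs of the 9 tested members r lay between -0.521 and 0.861 in epithelium, and between -0.730 and 0.80 in stroma, and those named are among the strongest. In epithelium (14 mice) Igf1 followed Igfbp6 (Pearson r = 0.861, Spearman rho = 0.815) and Igfbp4 (r = 0.740, rho = 0.675). In stroma (13 mice) Igf1 followed Grb10 (r = 0.80, rho = 0.830) and Igfbp6 (r = 0.734, rho = 0.863) and ran against Igf1r (r = -0.681, rho = -0.632). Igfbp2 and Igfbp4 ran against each other there (r = -0.730, rho = -0.692). Among all tested genes the 3 most like Igf1 over the 13 stroma sums were 1110038F14Rik (r = 0.938, rho = 0.934), Pabpn1 (0.897, 0.879) and Plekha8 (0.894, 0.824). These genes were picked for the highest r, so a high r follows in part from the choice. Those most like Igfbp5, picked in the same way, were Tm6sf1 (r = 0.947, rho = 0.786), Irak4 (0.928, 0.835) and Rassf2 (0.918, 0.830). For Igf2 they were Bnip3 (r = 0.920, rho = 0.890), Mblac1 (0.906, 0.945) and Gm6306 (0.898, 0.857), which says little for a gene near background.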

How the data were processed

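The deposited table of expected counts held 1 value per target and region, with whole numbers in all but 3 targets and a lowest value of 1, which made up 2.50% of the first-plate values of the kept targets. Per the file headers the authors used the GeoMx NGS Pipeline 2.3.3.10, and per the labels R 4.1.2 and the build mm10; Space Ranger is also named in the submitters' processing notes. The deposited signal values were the same counts divided by the third quartile (Q3) of their region, for 14881 targets kept by the authors for detection above negative probes.

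First-plate counts were summed per mouse and compartment and rounded. Genes were tested in R 4.3.3 by the edgeR (4.0.16) quasi-likelihood F test after TMM scaling. All p-values are two-sided, and those adjusted by Benjamini and Hochberg cover the 14881 genes, with calls at 0.05. SE is the log2 fold change divided by the root of the F statistic. The test keeps its default Poisson bound, which raises p above the value F gives for some genes of low variance. CPM come from TMM scaling over all 27 sums, log2 CPM with a prior count of 2. Exact permutation tests used all 3003 (epithelium) or 1716 (stroma) divisions of the mice. The epithelium and stroma sums of a mouse deviated together from their group means (correlation 0.152 to 0.521, 13 of 13 over 0.1, against a median of -0.0368 between mice), so the mouse was the block. The genotype model in epithelium and the compartment model were also run on simulated counts. These counts had the same dispersion in all genes and no mouse effect, so they do not test the block. The genotype by compartment and age terms were not simulated. Alternatives were DESeq2 1.42.0, upper-quartile scaling, no gene filter, filterByExpr, limma 3.58.1 on log2(Q3 value + 1) per mouse or per region with the mouse as a random block, both plates, the second plate alone, age or a marker score as a covariate, mice with at least 2 regions, no mouse block, an adjusted p under 0.1, and each mouse left out.

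The 9 tested members are described in every comparison, and Igf2 by its levels and between genotypes within a compartment. From the pathway list up to 6 called genes per direction are named between compartments, in order of size, and elsewhere the called genes and the 2 with the lowest p. Insr and Insrr are also named between compartments, as relatives of Igf1r. For 1 gene of the list, which is included in its counts, values are not reported here. Members and lists were chosen with earlier results of these data known. The design text names 13 mice and the labels 14, and the labels were followed. Ages carry no unit and were read as months. Luminal and glandular epithelium are not separated in the sums. Precision rests on the number of mice and on counting error in the small sums.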

Additional observations from a re-analysis of the deposited data

Results flagged for a closer look

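In the epithelium of PV mice, Igfbp5 in PV5 lay apart from the other 5 values, at 15.0 CPM against 36.9 CPM for the next lowest mouse. The gap was 0.627 of the whole range, and the value rested on 1 count in a sum of 61691, which is the lowest value the table holds. It was the only such value among 40 groups of a gene, genotype and compartment that were examined, where chance marks about 1 in 20.

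The PV to WT difference in epithelium minus that in stroma was 1.04 (log2) for Grb10, from 0.63 and -0.56, and 0.91 for Igfbp5, from -0.62 and -1.50. Both had an unadjusted p under 0.05 (5.42e-04 and 0.0287) and neither passed adjustment over all genes (0.579 and 0.657). In stroma the genotype difference of Igf1r was lower in older than in younger mice by -1.56 and that of Igfbp3 by -3.01, with unadjusted p of 0.0145 and 0.00799 and an adjusted p of 0.886 for both.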

How the results depend on the processing

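Among the single-gene results, 398 of the values under other settings kept direction and side of the threshold, 11 lost and 2 gained the threshold and 34 turned direction; with 1 mouse left out the counts were 685, 4, 4 and 27. The 9 members tested gave 7 calls between compartments, 6 without the replicate block (Igfbp2 adjusted p = 0.0905), 6 to 8 with 1 mouse left out and 0 on the second plate alone, where many labels go against the markers. Igfbp2 (adjusted p = 0.0306) was not called by DESeq2 (0.0568), and Igf2r (0.0561) was called with upper-quartile scaling (0.00294), which moved the median of all genes from -0.05 to -0.18 there and from -0.02 to 0.12 in the stromal age term. The causes of the turned directions below were not tested.

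All values are log2 differences. For PV against WT in epithelium, they turned on the second plate alone for Grb10 (-0.16), Igf1r (-0.038) and Igfbp2 (0.67), with the marker score for Igf1 (0.031), Igf2r (-0.065) and Igfbp4 (0.96), and with both plates for Igfbp2 (0.20) and Igfbp3 (0.15). Igf2r turned with upper-quartile scaling (-0.021), limma per mouse (-0.020) and limma over regions (-0.064), Igfbp3 with limma per mouse (0.045), and Igf2 with filterByExpr (-0.13) and no gene filter (-0.13). In stroma, Igf2r turned with age as a covariate (-0.15) and Igfbp3 on the second plate (-0.36). Between compartments, Igf1r turned with filterByExpr (0.009) and no gene filter (0.010), and Igfbp2 (0.21) and Igfbp3 (0.10) on the second plate. The genotype by compartment term turned with both plates for Igf1 (0.81), Igf2r (0.036), Igfbp2 (0.14) and Igfbp6 (0.78), with limma for Igf1 (0.28) and Igfbp6 (0.042), and for Igf2r with filterByExpr (0.023) and no gene filter (0.023). The age term turned in epithelium for Grb10 with upper-quartile scaling (0.016), limma (0.21) and both plates (0.34), for Igfbp2 with limma (-0.19) and Igfbp6 with both plates (0.67), and in stroma for Igf1 with both plates (-0.051).

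With 1 mouse left out, the ranges that crossed 0 were, for the age term in epithelium, -0.36 to 0.18 in Grb10, -0.71 to 0.87 in Igfbp2 and -1.11 to 0.40 in Igfbp3, and in stroma -1.38 to 2.22 in Igf1, -0.42 to 1.52 in Igfbp4 and -1.99 to 0.33 in Igfbp6. Igf1r ran from -0.113 to 0.003 between compartments, and Igf2r from -0.026 to 0.137 (epithelium) and -0.037 to 0.213 (stroma) between genotypes. The genotype by compartment term ran from -0.50 to 0.17 in Igf1, -0.105 to 0.097 in Igf2r, -0.25 to 0.35 in Igfbp4 and -0.345 to 0.066 in Igfbp6. Depth limits Igf2, Igfbp2 and all values of PV5 most.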
